A study of Rattus norvegicus with 8 samples.

Results

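The 4 ShCTR libraries of the series are described here, out of 8 libraries in all. They hold RNA of primary cells dissected from the nucleus pulposus of Wistar rats, the soft centre of a spinal disc. The cells were grown out of explants in DMEM with serum and antibiotics and transduced with a lentivirus carrying the MISSION PLKO.1 hairpin that has no target. They were kept at 1% oxygen for the last 24 h before RNA was taken. The other 4 libraries of the series carry a hairpin against HuR and were not compared, except in the counts of the HuR gene. The libraries were chosen by their labels alone, so no measured value decided which ones are described. Every ShCTR culture had the lentivirus, the hairpin and the low oxygen in common, and no library of untransduced cells or of cells at ambient oxygen was analysed here. The age and sex of the rats, the number of passages, and whether the 4 libraries came from separate animals are not stated in the labels. The spread over libraries may therefore be partly technical.

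The nucleus pulposus has no blood vessels, and its cells live at low oxygen on glucose that diffuses in from the vertebral endplates. Cells in such places use hypoxia-inducible factor 1 (HIF-1), a dimer of HIF-1α and ARNT, which prolyl hydroxylases mark for destruction when oxygen is plentiful. HIF-1 binds a short sequence in DNA and drives glycolysis, glucose uptake and carbonic anhydrases. In the disc the cells are known for a matrix of aggrecan and type II collagen that holds water, and for transcription factors and keratins that recall their descent from the notochord.

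Values are the authors' normalized counts, in which the reads of a library were divided by 1 factor. Recovered totals were 11234610, 12179515, 10277875 and 9096738 reads in replicates 1 to 4. A row counts as detected when it reached 10 normalized counts in each of the 4 libraries, which held for 10812 of 13536 rows. Each ± is an SD over n = 4 libraries, and the CV is that SD as a percent of the mean. Ranks are by mean normalized count, with rank 1 the highest. Reads grow with transcript length, for which no table was given, so a rank orders reads and not molecules. Elavl1, which encodes HuR, had 555, 699, 583 and 644 normalized counts in the 4 libraries, above the 6.06 to 63.8 of the libraries with the hairpin against it. Replicate 1 stood apart. Across the detected rows its Spearman correlation with the other libraries was 0.87, 0.88 and 0.90, and that among replicates 2 to 4 was 0.94 to 0.98. In 27.3% of detected rows replicates 1 and 2 differed by over 2-fold, against 3.43% for replicates 2 and 3. Genes are not independent replicates, so these are descriptions. Replicate 1 was highest in 38.7% of detected rows and lowest in 38.0%. Means without it are therefore given for some genes, and many others are given library by library. A gene given only as mean ± SD may still have replicate 1 far out. Col6a1, for example, was at 8426 with all 4 libraries and 5909 without replicate 1, and Serpinh1, Sdc4 and Tgfb1 were also far higher in replicate 1.

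Reads were concentrated in few genes. The 10, 100 and 1000 rows with most reads held 13.5 ± 2.95%, 31.8 ± 3.01% and 62.9 ± 2.94% of a library. Of the 20 highest rows, 13 were in the matrix lists, and 19 of the 20 were among the 100 highest of every library. The exception was Dcn, which ranked 167 in replicate 2. Of the 100 highest rows, 60 were in at least 1 of the 28 lists described here and 64 were among the 100 highest of every library. The lists cover matrix, disc markers, hypoxia, stress and secreted factors and together held 31.4 ± 2.70% of the reads, with each gene counted once. Some genes are in more than 1 list or group, so the shares and counts of the groups overlap and cannot be added. Plod2 and P4ha1, for example, are in the matrix and the hypoxia group, and Spp1 is in the matrix and the disc group. The disc group pools nucleus pulposus and notochord markers with those of chondrocytes, annulus and fibroblasts, myofibroblasts and smooth muscle, and hypertrophic cartilage and bone. The hypoxia group includes mitochondrially encoded genes, and the stress group includes proliferation genes.

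**Figure D1:**
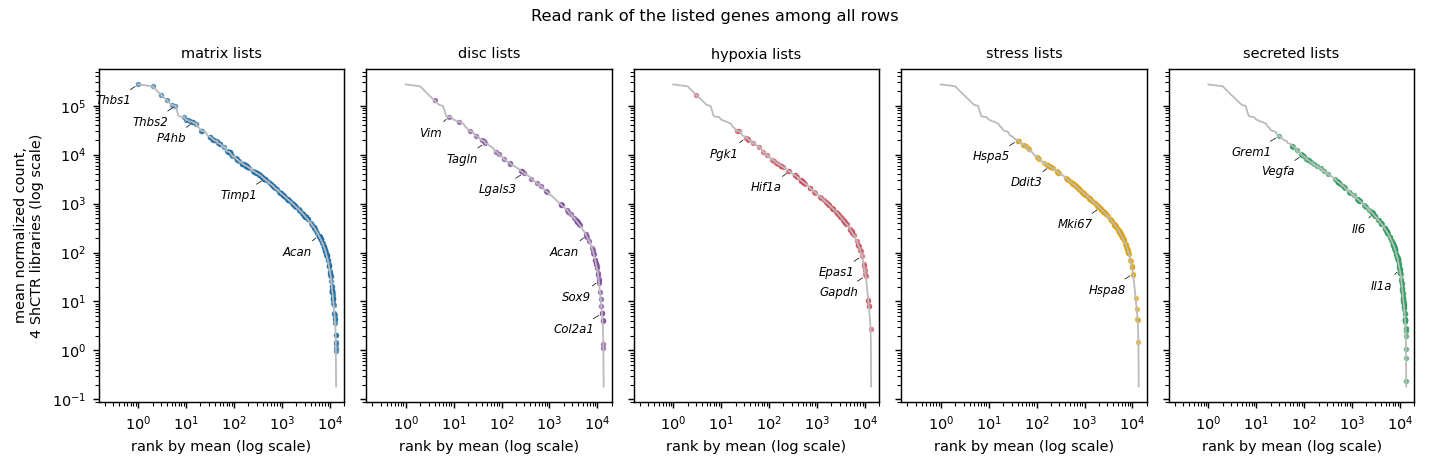
Mean normalized count over the 4 ShCTR libraries (log scale) against rank among all rows (log scale), with 1 panel for each of the 5 groups of lists. The grey line is every row and the coloured points are the listed genes. The matrix lists reach rank 1 (Thbs1), the stress lists begin at rank 40 (Hspa5), and Col2a1 of the disc lists lies at rank 12484.

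The matrix lists held 21.2 ± 2.79% of the reads, with 21.1%, 20.9%, 24.9% and 18.1% in replicates 1 to 4. Of the 200 matrix genes in the table, 164 were detected and 34 were among the 100 highest rows. Their median percentile was 86.1, on a scale on which the median of all rows is 50. The glycoproteins alone held 12.3 ± 1.87%, and most of that was adhesive and matricellular protein mRNA. Thbs1, thrombospondin 1, had 170913, 302507, 380025 and 236935 normalized counts and was the highest row in replicates 2, 3 and 4. Fn1, fibronectin, had 249477, 240537, 346914 and 162681 and was the second row in every library. Thbs2, thrombospondin 2, had 81993, 109877, 163376 and 42426. All these were highest in replicate 3, which also had the largest matrix share.

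Spp1, osteopontin, and Mgp, matrix Gla protein, encode proteins best known for their part in mineralization. Spp1 had 273127, 104358, 62583 and 72209.9 normalized counts, and was the highest row of replicate 1. Its mean was 128070 ± 98341, and 79717 ± 21876 without replicate 1 (n = 3). Mgp had 108383, 70121, 169591 and 68571, with replicate 3 the highest. Sparc, osteonectin, which binds collagen, had 87909.5, 52942, 47972 and 47455, again highest in replicate 1. Ctgf (CCN2), a matricellular protein, was steadier at 50326 ± 8207, a CV of 16.3%. Its relatives Cyr61 (CCN1) and Nov (CCN3) were at 5963 ± 3784 and 4139 ± 2221. The latent TGF-β binding protein Ltbp2 was at 43237 ± 17983, the glycoprotein Tnc (tenascin C) at 21404 ± 10296, and Emilin1, of elastic fibres, at 16590.1 ± 4439.7.

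A few matrix genes were nearly switched from library to library. Postn, periostin, had 43745, 577, 2706 and 31117 normalized counts: replicates 1 and 4 were over 10 times as high as replicates 2 and 3. Lum, the small proteoglycan lumican, had 7062, 410.1, 539.6 and 4918 and shared that order. Dcn, decorin, of the same small leucine-rich family, had 67549, 5865, 68035 and 48425, and only replicate 2 was low. Esm1, endocan, was high where Postn was low, with 1415, 22423, 21250 and 619. Fmod, fibromodulin, had 27.1, 105, 471 and 11.6, the largest CV among the detected proteoglycans (140.3%), and Thbs4 had 51.4, 18.3, 434 and 17.0, the largest among the detected glycoproteins (156%). In both genes replicate 3 was the high library.

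Of the collagens, 22 of 30 in the table were detected and they held 1.93 ± 0.503% of the reads, or 1.69 ± 0.153% without replicate 1. Fibrillar collagens of skin, tendon and fibrous tissue had the most reads. Col5a2 had 77834, 44827, 48347 and 36985 normalized counts, Col1a1 44777, 28189, 23002 and 26008 and Col3a1 30844, 13333, 10854 and 20537. Each of the 3 was highest in replicate 1. Col11a1, known from cartilage, had 14542, 7765, 8598 and 14922, and Col5a1 varied little at 10148 ± 1066. Microfibrillar type VI was high through Col6a2 at 9468 ± 5095 and Col6a1 at 8426 ± 5129, and basement-membrane type IV through Col4a1 at 6366 ± 3509. In all, 16 of the 22 detected collagens were highest in replicate 1. The largest CV was that of Col4a4, with 556, 70.3, 158 and 81.5. Col2a1, the collagen of cartilage and of the healthy nucleus pulposus, had 0, 0, 21.0 and 1.79, below detection in 3 of 4 libraries.

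Aggrecan, the main proteoglycan of the disc, had reads near the middle of the table. Acan had 449, 135, 225 and 72.6 normalized counts, a mean of 220.3 ± 165 at rank 5920, and was highest in replicate 1 and lowest in replicate 4. Versican (Vcan), the large aggregating proteoglycan of fibrous tissue, had 1740.0, 3739.6, 2485 and 1956, highest in replicate 2. The cell-surface proteoglycan Sdc4 was at 5679.6 ± 3383 and the small proteoglycan biglycan (Bgn) at 4706 ± 1841. Hapln1, the link protein that joins aggrecan to hyaluronan, was at 113 ± 58.5, and Has2, which makes hyaluronan, had 10.3, 69.6, 133 and 142. The proteoglycan list as a whole held 0.996 ± 0.277%.

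The machinery that folds and cross-links collagen ranked high, and some of it hardly varied. Of these genes 39 of 41 were detected, with a median percentile of 87.1 and 2.37 ± 0.238% of the reads. P4hb, the β subunit of prolyl 4-hydroxylase, had 45266, 40486, 46683 and 50603 normalized counts, a CV of 9.13%. Plod2, a lysyl hydroxylase, had 32067, 28331, 29692 and 33739.6, the smallest CV of the list (7.80%). Neither gene had a library that stood out. P4ha1, the catalytic subunit, was at 20420.5 ± 5711, and the collagen chaperone Serpinh1 (HSP47) at 11282 ± 5742. Lox, lysyl oxidase, had 22378, 52896, 76303 and 39213, lowest in replicate 1 and highest in replicate 3. Tgm2, transglutaminase 2, had 3250.3, 336, 361 and 618, and only replicate 1 was high, which gave the list's largest CV (124%).

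The proteases and their inhibitors held 3.66 ± 1.08%, with 39 of 46 genes detected. Serpine2, a serine protease inhibitor, was at 23465 ± 13590.4 normalized counts and the lysosomal protease Ctsb at 23210.1 ± 7030.2. Of the aggrecan- and collagen-degrading enzymes, Mmp3 (stromelysin 1) had 5251, 19202, 25879 and 7155, Adamts1 5275, 27415, 30351 and 5805 and Adamts5, an aggrecanase, 50.4, 1525, 1543 and 342. The 3 shared an order, with replicates 2 and 3 above replicates 1 and 4. Mmp13 (collagenase 3) had 3812, 949, 1902 and 4144, with replicates 1 and 4 above replicates 2 and 3. Mmp2, a gelatinase, had 16347, 2713, 2207 and 4982, and had the largest CV of the list (101%). Adamts4, another aggrecanase, was low at 88.6 ± 50.7. The 3 Timp inhibitors varied less: Timp2 was at 11184 ± 1768 (CV 15.8%), Timp1 at 3183 ± 407 (CV 12.8%) and Timp3 at 393 ± 63.1 (CV 16.1%).

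The label of the cells was set against their markers, and in part the values go against it. Of 29 genes taken as nucleus pulposus and notochord markers, 20 were in the table and 13 were detected, with 0.118 ± 0.0398% of the reads and a median percentile of 35.5. Sox9, the transcription factor needed for cartilage and disc matrix, had 21.5, 13.9, 24.7 and 44.8 normalized counts. Foxa2, a notochord transcription factor, had 1.87, 0, 4.57 and 9.86, and Cd24, a surface marker of nucleus pulposus cells, 53.2, 28.6, 8.22 and 7.17. Krt8, a keratin of notochordal cells, had 151, 24.2, 31.0 and 167, with replicates 1 and 4 above replicates 2 and 3. All 4 genes lay below the median row by their means. Sox5 and Sox6, partners of Sox9, were detected at 59.2 ± 21.2 and 127 ± 21.6, and Pax1, of the embryonic sclerotome, at 70.6 ± 60.3, where replicate 1 was the high library.

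Some markers were well represented. Lgals3 (galectin 3) had 4065, 3564, 2039.8 and 7243 normalized counts, Basp1 1817, 2796, 3022 and 2886 and Ncam1 2368, 1356, 1175 and 2143, all within the 1000 highest rows. Cdh2 (N-cadherin) had 119.6, 682, 715 and 519.8, lowest in replicate 1, and Car12, a membrane carbonic anhydrase, 457, 153, 446 and 681, lowest in replicate 2. These genes are also expressed outside the disc. Because Sox9, Col2a1, Foxa2 and Cd24 were low, the cells are named by their hairpin, as ShCTR cultures. Bulk RNA cannot tell fewer cells of a type from less RNA per cell. Krt18, Noto and Shh were not analysed here.

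Of 23 genes taken as annulus and fibroblast markers, 19 were in the table and all 19 were detected. For comparison, 79.9% of all rows were detected. The 19 markers held 2.27 ± 0.726% of the reads and had a median percentile of 96.9. Vim (vimentin), the intermediate filament of mesenchymal cells, had 89886, 45328, 42071 and 59642 normalized counts. The surface protein Thy1 had 6586, 5047, 3347 and 3539. Of the receptors for platelet-derived growth factor, Pdgfrb had 5327, 4858, 3354 and 4669, and Pdgfra had 2724, 1359.8, 2636 and 2471. The CVs of these 4 genes ran from 18.6% to 36.8%, and no library was far from the others. S100a4 was at 8200.0 ± 3264. Scx (scleraxis), a regulator of tendon and annulus, had 119.6, 952, 457 and 139.8. Mkx (mohawk), another, had 116, 270.2, 184 and 114. Both were highest in replicate 2.

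Contractile genes of myofibroblasts and smooth muscle held 0.640 ± 0.237%, with 11 of 12 detected. Cald1 (caldesmon) had 36473, 28033, 18027 and 14188 normalized counts and Tagln (SM22) 27943, 22906, 8506 and 10227, both with replicates 1 and 2 above replicates 3 and 4. Tpm2, a tropomyosin, was at 6748 ± 2719.8. Acta2, smooth muscle α-actin, had 4252, 1506, 532 and 996, the largest CV of the detected members (91.6%). Replicate 1 was highest for 8 of the 11. Chondrocyte markers held 0.142 ± 0.0420%, most of it from Col11a1, followed by Trps1 at 959 ± 439 and Acan. Among markers of hypertrophic cartilage and bone, with 1.33 ± 0.875%, Spp1 held most of the reads, Ibsp had 569, 84.9, 38.3 and 123 and Runx2 was at 60.8 ± 14.8. Alpl and Phex were under detection.

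Markers of other cell types were mostly low, with a median percentile of 15.1. The 6 lists, of leukocytes, endothelium, Schwann cells and neurons, skeletal muscle, fat and red cells, and epithelium, held 0.0483 ± 0.00600% of the reads in all, and 8 of the 21 genes in the table were detected. The 3 skeletal muscle and 2 epithelial markers were under detection. Of leukocyte markers Cd14 had 419, 309.7, 606 and 457 normalized counts, Cd68 496, 13.9, 39.3 and 46.6 and Cd74 2.80, 0.732, 0 and 4.48. Of endothelial markers Flt1, a VEGF receptor, had 412, 242, 551 and 346, while Vwf was at 5.42 ± 1.60. Pmp22 was at 2159 ± 620.3 and S100b had 437, 1773, 1980.5 and 158, and Tubb3 was at 60.4 ± 27.3. Of the fat markers, Fabp4 had 64.4, 30.0, 24.7 and 20.6, and Pparg had 13.1, 39.5, 33.8 and 20.6. Pmp22 and S100b are not limited to Schwann cells.

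**Figure D2:**
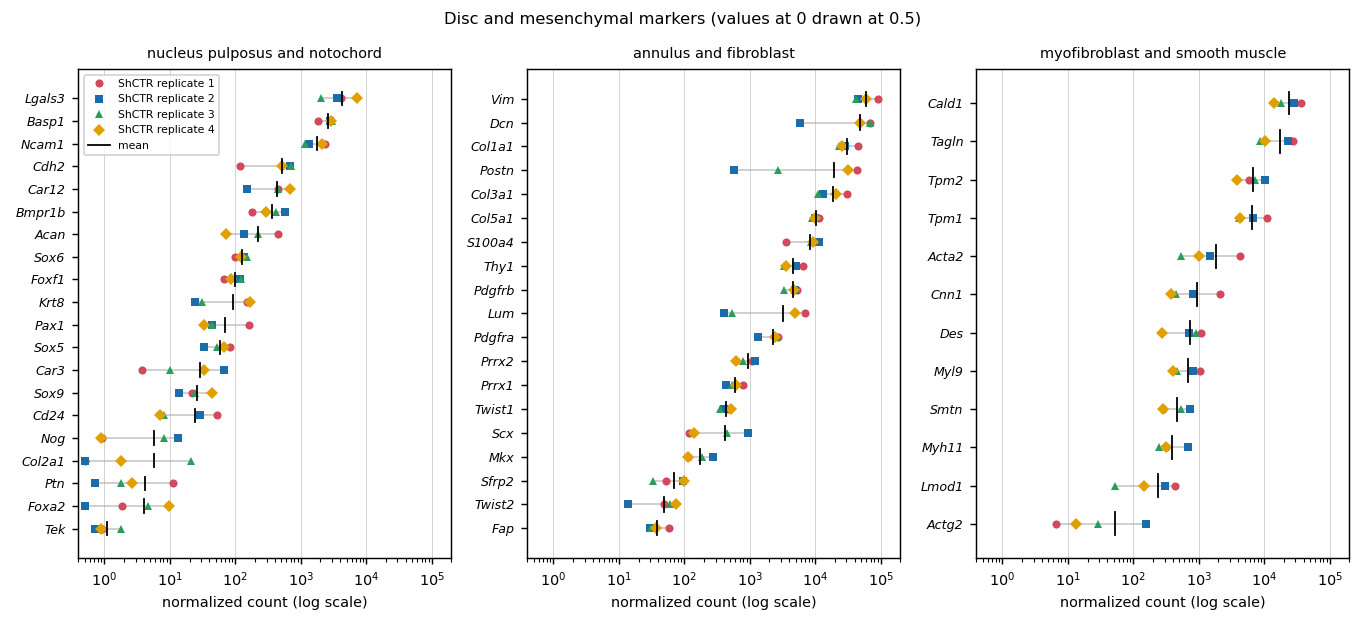
Normalized count (log scale) of nucleus pulposus and notochord markers, annulus and fibroblast markers, and myofibroblast and smooth muscle markers in each ShCTR library. Points are libraries, black ticks are means and grey lines the range, and values of 0 are drawn at 0.5. Sox9 lies at 13.9 to 44.8 and Thy1 at 3347 to 6586.

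The genes of the hypoxia lists held 5.10 ± 0.532% of the reads, with 4.73%, 4.75%, 5.86% and 5.04% in replicates 1 to 4. With 78 of 86 genes detected and a median percentile of 87.0, they lay close to the matrix genes in the table (86.1) when all rows were ranked by read number. The matrix genes were higher when detected rows alone were ranked (91.2 against 86.5), and the hypoxia genes when values were divided by genomic span (90.1 against 74.4). The median CV of the hypoxia genes was 32.2% (26.6% without replicate 1). No library at ambient oxygen was analysed here, so these are levels at 1% oxygen and not responses to it.

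Hif1a, the oxygen-regulated subunit of HIF-1, had 7903, 3168, 4043 and 3096 normalized counts and ranked 265. Epas1, which encodes HIF-2α, had 60.7, 82.0, 181 and 15.2 and ranked 8647. Epas1 was highest in replicate 3 and lowest in replicate 4, and had the largest CV of the oxygen sensors (82.5%). Egln3, a prolyl hydroxylase that HIF itself induces, had 1936, 1298, 4491 and 7104, with replicates 3 and 4 above replicates 1 and 2. Egln2, another prolyl hydroxylase, was at 413 ± 105 and Hif1an (FIH), the asparaginyl hydroxylase, at 106 ± 24.5. Vhl, which targets hydroxylated HIF-α for degradation, had 2213, 846, 769.7 and 866, and Cited2, which competes with HIF-1α for its coactivator, had 157, 1568, 2557 and 1279. Replicate 1 was the high library for Hif1a and Vhl and the low library for Cited2. The partner Arnt was at 300.4 ± 58.5.

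Glycolysis held 1.18 ± 0.223%, with 24 of 28 genes detected and a median percentile of 94.6. Pgk1 (phosphoglycerate kinase) had 15542, 24112, 21234 and 27901 normalized counts and Aldoa (aldolase A) 21019, 15054, 13598 and 18710.5. Gpi (glucose-6-phosphate isomerase) had 22284, 12088, 10044 and 13599.8 and Ldha, which turns pyruvate to lactate, 5958, 5829, 4324 and 6202. The highest library was less than 2 times the lowest for these enzymes, except for Gpi, which was highest in replicate 1. Pgam1 was the steadiest detected member (CV 12.9%). The transporter of glucose was not: Slc2a1 (GLUT1) had 30410.3, 3712, 4119.8 and 8189.8, the largest CV of the detected members (109%), and 5340.5 ± 2476 without replicate 1 (n = 3). Of the lactate transporters, Slc16a3 had 1712, 5167, 4291 and 3127, lowest in replicate 1, and Slc16a1 had 4366, 1871, 2879.8 and 2449, highest there. Pdk1, which keeps pyruvate out of the mitochondria, was at 1676 ± 305 and Pfkfb3, which activates phosphofructokinase, at 2688 ± 962.

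Gapdh and Tpi1 had few reads for glycolytic enzymes, 21.9 to 47.6 and 113 to 170.0 normalized counts. Hspa8, a chaperone found in every cell, had 122, 6.59, 5.48 and 12.5. Genes like these have processed pseudogenes in the rat genome, and how the authors counted reads that match several places is not given in the sources used here. Its part in these values was not tested, and they are not read as levels. The 3 genes were kept in the sums, so the shares of glycolysis and of the hypoxia and stress lists carry the same limit.

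Other HIF targets held 3.41 ± 0.615%, and among the highest were Plod2, Ero1a and P4ha1, which act on collagen or on disulfide formation in the endoplasmic reticulum. Car9, a carbonic anhydrase widely used as a marker of hypoxic cells, had 6153, 6741, 7873 and 5256 normalized counts, a CV of 16.9%. Bnip3, which triggers the removal of mitochondria, had 5174, 3466, 4470.4 and 5706, and Fam162a 3807, 3939, 3009.5 and 4717. None of the 3 had a library far from the others. Vegfa, the angiogenic growth factor, had 19692, 4908, 5889 and 8342, with replicate 1 the highest and a mean of 6379.9 ± 1769 without it (n = 3). Ndrg1 had 9851, 2033, 3007 and 8891, and Adm (adrenomedullin) 3750.0, 2326, 3386 and 1742. Ankrd37 had 1177, 164, 59.3 and 365, the largest CV of the detected targets (115%). Ddit4 (REDD1), an inhibitor of mTORC1, had 2047, 286, 171 and 781 and the same order. Igfbp3, a binding protein of insulin-like growth factors, had 5.60, 1226, 1707 and 884: replicate 1 was under detection and the other libraries were not. Mitochondrially encoded genes held 0.364 ± 0.0723%, most of it from Mt-co1 with 31999, 27589, 39132 and 20351. Mt-co2 and Mt-atp6 were at 1760.1 ± 714 and 774 ± 217, and Mt-nd3 had the largest CV (70.9%). The mitochondrially encoded genes may also carry the limit given above for reads that match several places. That was not tested, and their order is not read as one of levels.

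**Figure D3:**
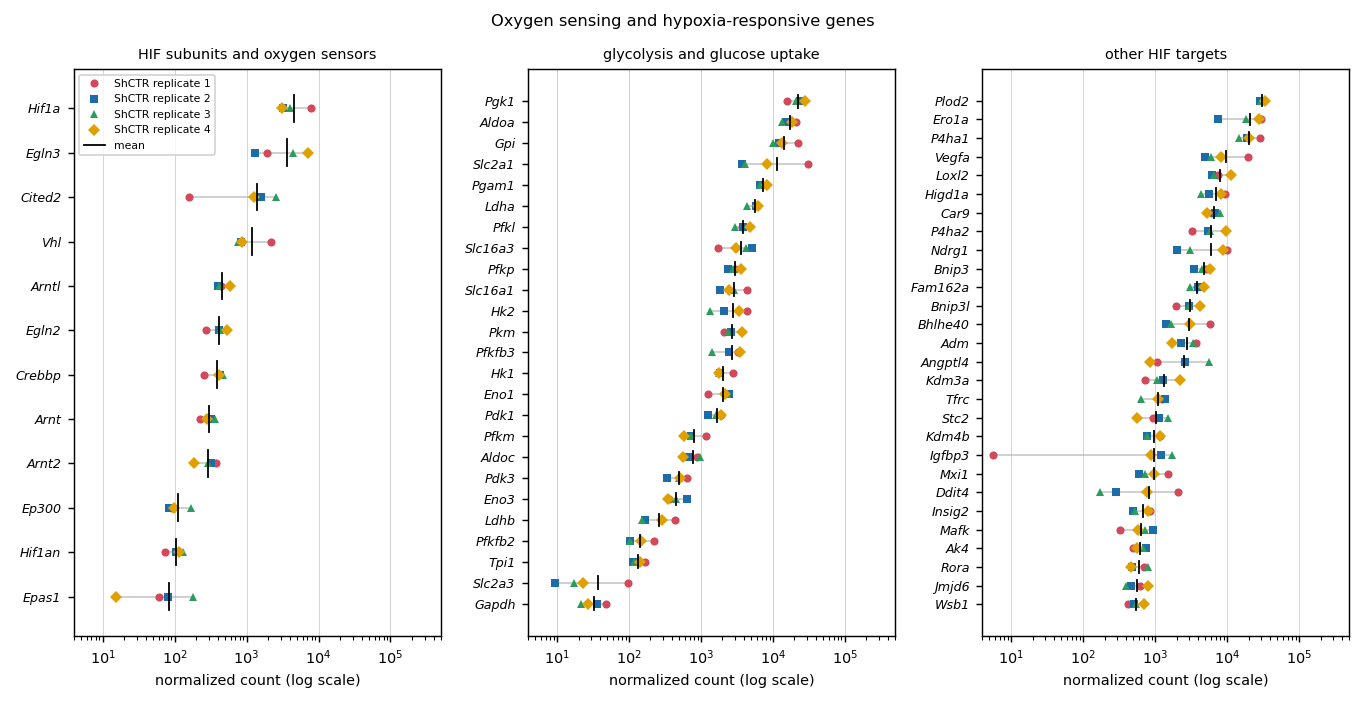
Normalized count (log scale) of genes of oxygen sensing, of glycolysis and of other HIF targets in each ShCTR library. Points are libraries, black ticks are means and grey lines the range. Car9 lies at 5256 to 7873, and Slc2a1 at 30410.3, 3712, 4119.8 and 8189.8 in replicates 1 to 4.

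HIF-1 binds DNA at a core of ACGTG or GCGTG. The promoters of the hypoxia genes were therefore read from RefSeq on GRCr8, each 300 bases from 250 before to 50 after the annotated start. A single promoter was matched for 55 of the 68 detected genes of oxygen sensing, glycolysis and other HIF targets. ACGTG, on either strand, was in 31 of the 55, or 56.4%, against 27.2% of 7556 detected genes and 19.3% of all 33469 promoters of the table. GCGTG was in 52.7% of the 55, against 52.9% of detected genes and 29.7% of all promoters. A promoter with ACGTG or GCGTG was 69.1% of the 55 and 65.0% of the detected genes. So it was ACGTG by which the hypoxia genes stood above the detected genes. By list, ACGTG was in 18 of 24 other HIF targets, 11 of 20 glycolysis genes and 2 of 11 oxygen sensors. The 31 genes with ACGTG had a median percentile of 95.8 and the 24 without it 75.8, while their median CVs were 34.2% and 30.5%. The 13 detected genes with no single matched promoter had a median percentile of 98.7, above both sets. Of genes in the table, the oxygen sensors had a median percentile of 70.6, glycolysis genes 94.6 and other HIF targets 88.8. The 2 sets thus differ in their lists, and whether ACGTG goes with more reads within a list was not tested. Many of the hypoxia genes are known as targets because of such a site, so the share with ACGTG is no independent sign. The promoters of Car9, P4ha1, Plod2 and Ldha are shown because these genes had many reads in every library and each holds the core. Capitals mark ACGTG or its reverse complement CACGT, and where CACGTG occurs both strands match and overlap.
Car9: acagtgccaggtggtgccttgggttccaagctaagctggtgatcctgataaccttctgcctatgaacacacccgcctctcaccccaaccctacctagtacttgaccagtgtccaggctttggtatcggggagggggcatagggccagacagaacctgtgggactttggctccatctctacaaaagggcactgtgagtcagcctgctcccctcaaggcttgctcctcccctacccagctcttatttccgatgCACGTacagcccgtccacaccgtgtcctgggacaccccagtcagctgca
P4ha1: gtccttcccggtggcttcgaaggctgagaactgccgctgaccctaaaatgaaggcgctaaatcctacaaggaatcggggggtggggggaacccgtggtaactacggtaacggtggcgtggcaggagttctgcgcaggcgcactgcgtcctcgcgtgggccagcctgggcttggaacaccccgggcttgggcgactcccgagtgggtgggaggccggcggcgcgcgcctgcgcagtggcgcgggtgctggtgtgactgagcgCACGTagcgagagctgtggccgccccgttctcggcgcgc
Plod2: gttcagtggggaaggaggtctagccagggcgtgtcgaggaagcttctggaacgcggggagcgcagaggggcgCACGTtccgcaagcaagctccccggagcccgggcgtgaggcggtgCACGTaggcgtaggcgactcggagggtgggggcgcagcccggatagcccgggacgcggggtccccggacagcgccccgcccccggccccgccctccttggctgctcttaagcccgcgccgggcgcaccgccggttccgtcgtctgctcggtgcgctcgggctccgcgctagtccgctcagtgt
Ldha: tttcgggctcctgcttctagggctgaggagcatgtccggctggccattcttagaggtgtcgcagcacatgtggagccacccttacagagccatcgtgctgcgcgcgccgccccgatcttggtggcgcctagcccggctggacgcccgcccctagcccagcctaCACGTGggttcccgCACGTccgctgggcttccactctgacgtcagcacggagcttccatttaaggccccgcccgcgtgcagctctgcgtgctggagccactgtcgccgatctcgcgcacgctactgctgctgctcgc
They lie at chr5:62558774-62559073, chr20:27844796-27845095, chr8:101964068-101964367 and chr1:106507842-106508141, all on the + strand of GRCr8. The match of Car9 begins at base 2 after the start and that of P4ha1 at base 12, those of Plod2 begin 178 and 133 bases before it, and those of Ldha 87, 86 and 73 bases before it. A match is a description of the letters and was not measured as a bound site.

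The stress lists held 3.58 ± 0.514% of the reads, with 4.34%, 3.27%, 3.25% and 3.46% in replicates 1 to 4, and 139 of 147 genes were detected. Chaperones of the endoplasmic reticulum were high and largely even. They held 1.16 ± 0.121%, 22 of 22 were detected, and their median CV of 23.2% was below the 26.5% of all detected rows. Hspa5 (BiP), the main chaperone of that compartment, had 38751, 14708, 12484 and 11990.3 normalized counts, high in replicate 1 alone and 13061 ± 1448 without it (n = 3). The lectin chaperones Canx and Calr were at 15922 ± 2366 and 15759 ± 4196. Manf, a secreted chaperone, had 2060.4, 2130.1, 2136 and 1959.8, the smallest CV of all the stress genes (3.96%). Xbp1, whose spliced form drives this response, had 312, 934, 1171 and 1055, lowest in replicate 1, and its activator Ern1 (IRE1α) had 1272, 379, 557 and 455, highest there.

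Genes of the integrated stress response took the largest share of reads in replicate 1. This pathway slows translation through eIF2α and drives the transcription factor ATF4. Its genes held 0.590%, 0.232%, 0.296% and 0.334% of the reads in replicates 1 to 4, or 0.287 ± 0.0516% without replicate 1. Atf4 had 15778, 4976, 6502 and 7462 normalized counts. Ddit3 (CHOP), an ATF4 target tied to cell death, had 19834, 1142, 877 and 1053, so replicate 1 was 22.6 times the lowest library and the other 3 lay close together. Atf3 had 1407, 87.9, 104 and 261 and Ppp1r15a (GADD34), which reverses the block of translation, 4346, 1246, 1466 and 1166. Each of the 4 was highest in replicate 1. Other ATF4 targets differed among themselves in their order. Trib3 had 75.7, 172, 342 and 542, Slc7a11 (the cystine transporter) 28, 267, 872 and 344 and Sesn2 73.8, 291, 396 and 220.4, all lowest in replicate 1, while Asns (asparagine synthetase) had 1303, 455, 1095 and 694 and Vldlr was at 4559 ± 812. Of the 22 detected genes 11 were highest and 6 lowest in replicate 1.

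Small heat shock proteins had the same high library. Hspb1 (HSP27) had 14450, 4639.5, 3688 and 1521 normalized counts and Cryab (αB-crystallin) 8879, 1472, 692 and 1760.0, and Hspb7 had 573, 80.5, 67.6 and 16.1, the largest CV of the detected heat shock genes (141%). The larger chaperones Hsp90ab1 and Hspa4 spread less, at 6818 ± 1637 and 5239 ± 524, though Hsp90ab1 too was highest in replicate 1, at 9260. Of 19 detected heat shock genes 14 were highest in replicate 1.

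Antioxidant genes held 1.13 ± 0.121%, with 30 of 33 detected and a median percentile of 92.4. Fth1, ferritin heavy chain, had 39587, 8869.7, 16489 and 11899 normalized counts and Gpx1 10872, 2457, 1837 and 1491, both highest in replicate 1, and Gpx1 had the largest CV of the list (108%). Sod2, the mitochondrial superoxide dismutase, had 14855, 14792, 25613 and 20639 and Hmox1 (haem oxygenase 1) 9112, 15030.1, 17348 and 17702, the latter lowest in replicate 1. The peroxiredoxin Prdx1 (CV 5.60%) and the autophagy receptor Sqstm1 (p62; CV 7.04%) hardly varied. Nfe2l2 (NRF2), the factor that drives many of these genes, had 1391, 2318, 2859 and 2944.

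Growth-arrest and division genes were both present. Among arrest genes, Ccng1 was at 5539.9 ± 1502, Mdm2 at 4457 ± 1062, the proapoptotic Pmaip1 (NOXA) at 2606 ± 711 and Cdkn1a (p21) at 2460.2 ± 1055. Cdkn1b (p27) had 3497, 378, 459 and 936, the largest CV of that list (112%), and Cdkn2a had 25.2, 180.1, 159 and 17.0, with replicates 2 and 3 above the others. All 20 proliferation genes in the table were detected. Ccnd1 (cyclin D1) had 20968, 15165, 11279 and 7865 normalized counts, and unlike most of them was highest in replicate 1. Top2a had 1100.3, 797, 367 and 2929, Mki67 (Ki-67) 783, 492, 322 and 1642 and Ccnb1 (cyclin B1) 90.6, 142, 80.4 and 550.2, the largest CV of the list (104%). Replicate 4 was highest for 18 of the 20 and replicate 3 lowest for 16. Pcna was at 856 ± 216. Of the genes of osmotic regulation, which nucleus pulposus cells need in their hypertonic matrix, the transcription factor Nfat5 was at 601 ± 167, aldose reductase (Akr1b1) at 1606 ± 497 and the taurine transporter Slc6a6 at 768 ± 301. Sgk1 had 39.2, 379, 369.8 and 194, the largest CV of the detected members (65.9%). The water channel Aqp1 had 4889.5, 8.05, 3.65 and 813: its mean ranked 1123, but it was under detection in replicates 2 and 3.

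**Figure D4:**
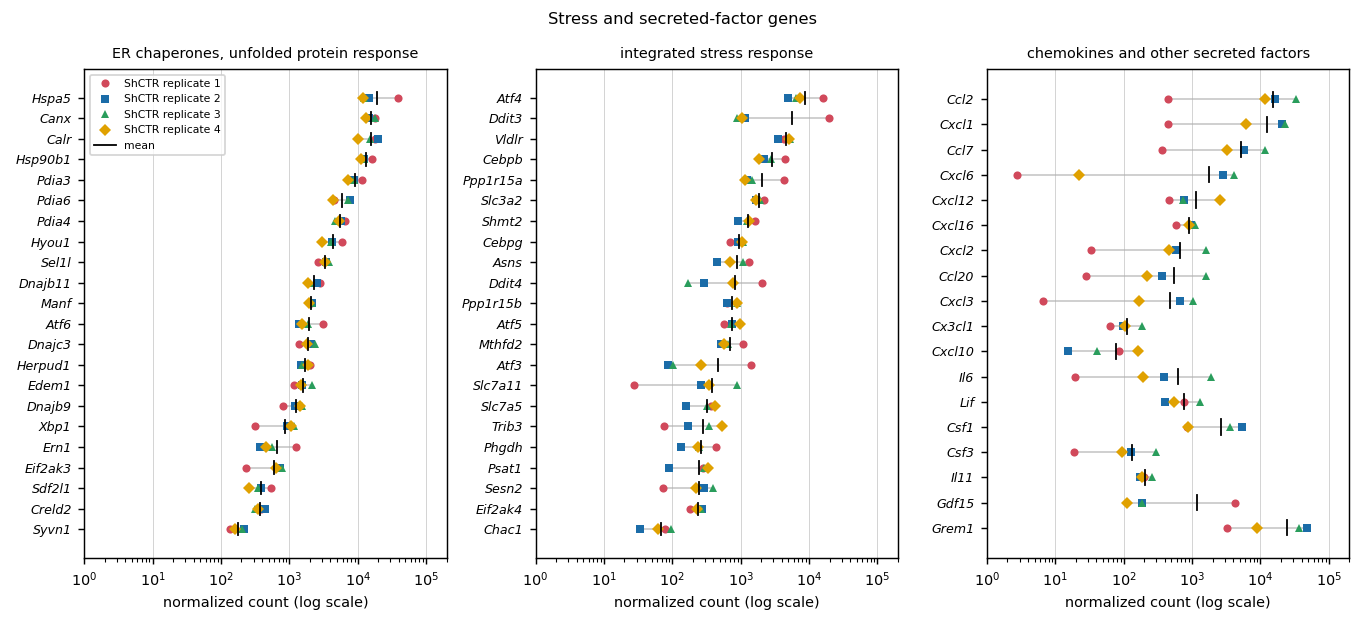
Normalized count (log scale) of genes of the unfolded protein response, of the integrated stress response and of chemokines and other secreted factors in each ShCTR library. Points are libraries, black ticks are means and grey lines the range. Ddit3 and Gdf15 are high in replicate 1 alone, and Ccl2, Cxcl1 and Il6 are lowest there.

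Secreted factors held 2.52 ± 0.524% of the reads, with 2.12%, 2.89%, 3.06% and 2.03% in replicates 1 to 4. Detected were 98 of the 145 listed genes with values, and the median percentile of 46.6 was near the middle of the table. Their median CV was 53%, the largest of the 5 groups, and 35.3% without replicate 1.

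Of the 28 lists, chemokines had the largest ratio of highest to lowest share between libraries. They held 0.0242%, 0.553%, 0.826% and 0.316% of the reads in replicates 1 to 4, and 0.565 ± 0.255% without replicate 1. Ccl2 (MCP-1), which draws monocytes, had 446, 16306, 32784 and 11740.3 normalized counts and Ccl7, a related monocyte chemokine, 364, 5789, 11536 and 3212. Cxcl1, Cxcl2, Cxcl3 and Cxcl6 encode chemokines that draw neutrophils. Cxcl1 had 452, 20882, 22743 and 6203, and Cxcl2 had 33.6, 579, 1595 and 458. Cxcl3 had 6.54, 671, 1044 and 166, and Cxcl6 had 2.80, 2884, 4145 and 22.4. Ccl20 had 28, 368, 1599 and 221, the largest CV of the detected members (128%). All 7 were lowest in replicate 1 and highest in replicate 3. Cxcl3 and Cxcl6 were under detection in replicate 1 and so are not among the 9 of 16 chemokines that were detected. Cxcl16 had 573, 971, 1115 and 910.5, the same order over a narrow range, and Cxcl12 (SDF-1), a constitutive chemokine of stroma, had 466, 758, 741 and 2556, highest in replicate 4.

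Cytokines followed the chemokines in part. Il6 had 19.6, 387, 1917 and 192 normalized counts and was highest in replicate 3 and lowest in replicate 1, with the largest CV of the detected cytokines (139%). Csf3 (G-CSF) had 18.7, 127, 295 and 95.9 and the same order. Csf1 (M-CSF), which sustains macrophages, had 831, 5321, 3622 and 877, with replicates 2 and 3 above the others. Lif was at 756 ± 398 and Il11 was even at 206 ± 39.9. Il1a was at 44.6 ± 30.5. Of 23 genes of this list in the table, 10 were detected.

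The inflammatory factor NF-κB binds sites of the form GGG, any 2 bases, then TTTCC. This form was looked for in promoters after the chemokine values had been seen. It was on either strand in 512 of the 33469 RefSeq promoters, or 1.53%, and in 1.71% of the detected genes. Of the 11 chemokines in the table with a single matched promoter, 4 held it, namely Ccl20, Cxcl1, Cxcl2 and Cxcl6, and of 13 cytokines Il1rn and Il6 held it. Among detected genes alone it was in 3 of 8 chemokines and 1 of 5 cytokines. It was in none of the 55 detected hypoxia genes, but at 1.71% of detected genes few or none would be expected there. The promoters of Cxcl1, Cxcl2, Cxcl6 and Il6 are shown as examples of genes that held the form and were lowest in replicate 1 and highest in replicate 3. Ccl2, Ccl7, Cxcl3 and Csf3 were so too, so this order was not limited to genes in which the form was found. Capitals mark the matches.
Cxcl1: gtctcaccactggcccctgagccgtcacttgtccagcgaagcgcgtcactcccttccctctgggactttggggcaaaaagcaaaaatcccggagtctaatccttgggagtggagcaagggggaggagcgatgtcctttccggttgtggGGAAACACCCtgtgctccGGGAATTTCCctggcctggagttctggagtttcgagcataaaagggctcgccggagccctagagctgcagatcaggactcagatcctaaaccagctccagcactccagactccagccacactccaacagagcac
Cxcl2: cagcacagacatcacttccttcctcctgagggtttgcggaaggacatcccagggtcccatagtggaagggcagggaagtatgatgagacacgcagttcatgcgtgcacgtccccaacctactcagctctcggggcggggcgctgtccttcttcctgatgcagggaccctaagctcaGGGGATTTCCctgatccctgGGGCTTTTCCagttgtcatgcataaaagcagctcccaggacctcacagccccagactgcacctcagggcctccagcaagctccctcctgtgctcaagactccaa
Cxcl6: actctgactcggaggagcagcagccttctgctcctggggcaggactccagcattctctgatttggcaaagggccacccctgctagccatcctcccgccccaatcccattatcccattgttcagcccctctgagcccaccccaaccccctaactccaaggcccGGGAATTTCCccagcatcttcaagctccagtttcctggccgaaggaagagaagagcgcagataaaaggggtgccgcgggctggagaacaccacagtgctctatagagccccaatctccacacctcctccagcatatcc
Il6: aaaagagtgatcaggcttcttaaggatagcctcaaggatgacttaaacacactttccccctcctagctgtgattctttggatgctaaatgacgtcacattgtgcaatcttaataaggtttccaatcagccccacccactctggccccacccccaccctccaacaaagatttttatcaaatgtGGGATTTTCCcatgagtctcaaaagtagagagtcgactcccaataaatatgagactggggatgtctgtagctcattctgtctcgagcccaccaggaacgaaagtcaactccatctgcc
They lie at chr14:17479272-17479571, chr14:17467206-17467505, chr14:17596368-17596667 and chr4:5894526-5894825, all on the - strand of GRCr8 and written 5′ to 3′ along the gene. The matches begin 102 and 84 bases before the start in Cxcl1, 74 and 54 in Cxcl2, 88 in Cxcl6 and 68 in Il6. They were not measured as bound sites, and the promoters of genes without a match may hold other forms of the site.

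Growth factors held 0.411 ± 0.0670%. After Vegfa, described above, the highest were Grn (progranulin) at 7660.4 ± 1808 normalized counts and Adm. Gas6, a ligand of the TAM receptors, had 4999, 2499, 1689 and 1738 and Angptl2 5256, 871, 1095 and 1262, where replicate 1 was high and the CV the largest of the detected members (98.8%). Angptl4, a HIF and PPAR target, had 1069, 2604, 5680.2 and 842, highest in replicate 3. Hdgf (CV 5.29%) and the epidermal growth factor relative Hbegf (CV 11.2%) hardly varied.

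Ligands and antagonists of the TGF-β and BMP families held 0.750 ± 0.221%. An antagonist led: Grem1 (gremlin 1), which binds BMPs, had 3218, 47457, 36989 and 8832 normalized counts, with replicates 2 and 3 above replicates 1 and 4. Fstl1 was at 14541 ± 2496 and Tgfb3 had 16109.7, 11946, 4623 and 5816, highest in replicate 1. Tgfb2 was at 1151 ± 295 and Tgfb1 at 392 ± 242. Gdf15, a stress-induced hormone, had 4306, 185, 188 and 113, high in replicate 1 alone and with the largest CV of the secreted genes (173%). Its mean was 1198 ± 2072, and 162 ± 42.6 without replicate 1 (n = 3). Bmp2 had 12.1, 294, 271 and 271, and Bmp4 had 15.9, 645, 457 and 133, both lowest in replicate 1.

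Of the proteins that bind insulin-like growth factors, Igfbp7 was at 9224 ± 2133 normalized counts and Igfbp6 at 456 ± 194, and Igfbp4 had 229, 16.8, 17.3 and 105. Among Wnt modulators Dkk3 had 22312, 5667, 5035 and 7350.1, highest in replicate 1, Sfrp4 was at 397 ± 203 and Rspo3 had 39.2, 295, 382 and 322, while the ligand Wnt5a was at 124 ± 80.1. Complement and acute-phase genes were steadier than chemokines, with 0.639 ± 0.0639% of the reads. C3, the central component of complement, had 11880.5, 18643, 22693 and 7338, Lgals1 (galectin 1) 8679.7, 8786, 7540.2 and 8269.6, C1r was at 7759 ± 1439 and Lcn2 (lipocalin 2) had 6106, 2644, 11419.8 and 5270.2.

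**Figure D5:**
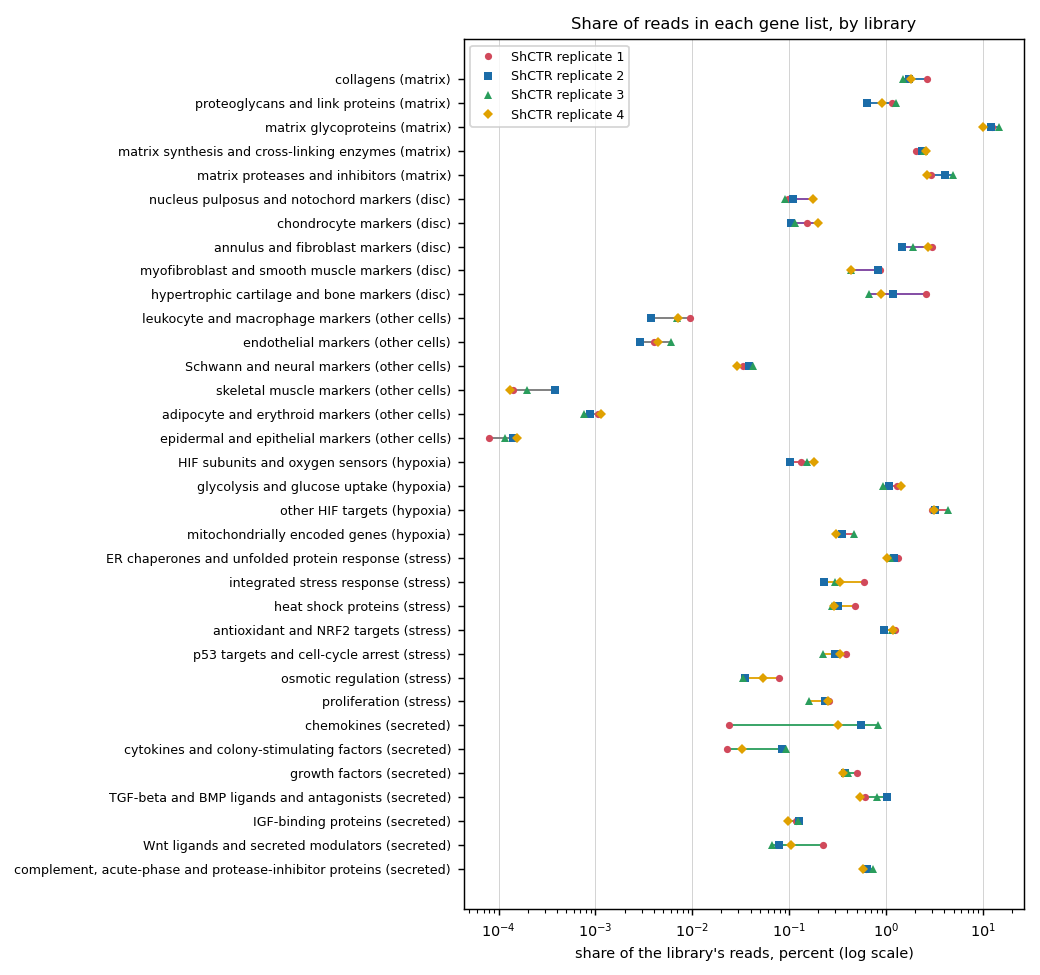
Share of each library's reads (percent, log scale) held by each gene list. Points are the 4 ShCTR libraries and lines their range, coloured by group of lists. The chemokine share runs from 0.0242% in replicate 1 to 0.826% in replicate 3, and that of the complement and acute-phase list from 0.575% to 0.727%.

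Beyond the lists, the highest rows were Ccdc80, a secreted matrix-binding protein, with 41502, 80286, 96109 and 28683 normalized counts, the scaffold Ahnak at 43859 ± 12341, the actin cross-linker Flna at 38915 ± 5883, the elongation factor Eef2 at 36137 ± 10068, cytoplasmic actin (Actb, which has processed pseudogenes) at 35153 ± 9062, and the milk-fat globule protein Mfge8 with 45717, 16738, 15796 and 49976. Ptgs2 (cyclooxygenase 2), named after its values were seen, ranked 26 with 3603, 24404, 67591 and 19354, and so shared the order of Ccl2 and Il6.

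The spread of the 5 pooled groups exceeded that of the table, though not that of every list. Over all 10812 detected rows the median CV was 26.5%, with quartiles of 16.9% and 40.5%, and 96.4% of rows varied by more than counting of reads alone gives. Median CVs were 44.5% for matrix, 45.9% for the pooled disc group, 32.2% for hypoxia, 30.7% for stress and 53% for secreted genes. The lists of endoplasmic reticulum chaperones (23.2%), heat shock proteins (24.0%), glycolysis (25.9%) and antioxidant genes (26.1%) lay below the median of all detected rows. Within the disc group the nucleus pulposus and notochord list had a median CV of 49.9% and the annulus and fibroblast list 36.8%. Without replicate 1 the median over all detected rows was 15.7% and those of the 5 groups were 32.0%, 37.5%, 26.6%, 21.0% and 35.3%. The spread did not follow the number of reads in 1 direction, since the median CV was 34.0% in the lowest of 10 equal bins of detected rows by mean, 22.0% in the seventh bin and 26.4% in the highest. Among detected rows above the median in mean, the smallest CVs were those of Usp8 (0.746%), Trim35, Elp3, Rab7a and LOC361635. Each lay below the CV that counting of reads alone gives, which was 3.22% for Usp8. These rows are the extremes of a large table and cannot be told from equally steady genes. The most variable were Klhl40, with 5463, 30.8, 21.9 and 167 normalized counts, Gdf15, Ddit3, Susd5 with 7754, 276, 154 and 1088, and the histocompatibility gene RT1-CE6 with 62.6, 425, 2369 and 70.8. The first 4 of these were highest in replicate 1, and RT1-CE6 was highest in replicate 3.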

How the data were processed

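RNA of the 4 ShCTR libraries was sequenced from stranded total RNA libraries depleted of ribosomal RNA, per the labels' protocols. The deposited signal per gene is a normalized read count, which the authors made by dividing each library by 1 factor. Whole reads were recovered from it within a tolerance of 0.01. No label or file header names the aligner, counter, genome build or annotation, which are thus not given in the sources used here. Rows were matched by gene symbol, since the deposited identifiers did not pair with them. Left out of the gene lists were 21 rows whose symbols had been turned into dates (0.259% of reads) and 105 rows with a repeated symbol (0.453%).

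Shares of reads, means, SDs, CVs and ranks were computed with Python 3.11.15, pandas 2.3.3 and NumPy 2.4.6, and the TMM alternative with edgeR 4.0.16. The steps were tested on simulated data. A row was detected at 10 or more normalized counts in all 4 libraries. Levels per kilobase had been planned, but no transcript or coding length was given, so reads were ranked instead. With 1 group no test was made. Named by rule were a fixed set of disc and hypoxia genes, the 20 highest rows, in each list the 3 highest detected members and the one with the largest CV, and the 5 rows with the largest and smallest CV among detected rows above the median. A few genes so chosen are not reported here. Other members were named for their known roles after their values were seen. The members and lists were chosen with earlier results of these data known. The number of reads per library, 9096738 to 12179515, leaves counting error small for most rows. Alternatives were leaving out each library, other scalings, denominators and minimums, and, added after seeing the data, division by the genomic span of the gene, each hypoxia motif alone and the NF-κB form.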

Additional observations from a re-analysis of the deposited data

Results flagged for a closer look

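In groups of 4 libraries a gene was marked when the gap between its extreme library and the nearest other exceeded Dixon's 95% critical share of the whole range, which chance gives in about 1 of 20 groups. Of the 223 genes named here 31 were marked, or 13.9%, and of all detected rows 10.6%. Some of the named genes were picked for their large CV, and others were named after their values were seen. Their share therefore cannot be set against that of all rows. Replicate 1 was the extreme library for 26 of the 31 and for 81.5% of the marked detected rows. None of the 34 lists was marked by its share of reads.

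Replicate 1 was far above the others for stress genes, with 19834.5 normalized counts of Ddit3, 4305.76 of Gdf15, 1406.61 of Atf3, 4345.93 of Ppp1r15a, 38750.9 of Hspa5, 9259.73 of Hsp90ab1, 573.479 of Hspb7, 8878.65 of Cryab and 10871.8 of Gpx1. It was also far above for matrix and secreted genes, with 87909.5 of Sparc, 19792.5 of Serpinh1, 10752.3 of Sdc4, 3250.34 of Tgm2, 22312.4 of Dkk3, 5255.65 of Angptl2, 751.874 of Tgfb1 and 568.809 of Ibsp. The same held for 30410.3 of Slc2a1, 2212.66 of Vhl, 4889.52 of Aqp1, 160.649 of Pax1, 495.957 of Cd68, 5462.99 of Klhl40 and 7754.11 of Susd5. Hspa8 was marked too, at 122.355, but its values are not read as levels. Bmp2 was marked as low in replicate 1, at 12.1421. The measure uses unlogged counts and does not mark a low library where the other 3 differ widely, so genes such as Ccl2, Cxcl1 and Igfbp3 were not marked.

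Replicate 3 was far above for RT1-CE6 at 2369.43, Thbs4 at 433.711 and Col2a1 at 21.0007 normalized counts. Replicate 4 was far above for Ccnb1 at 550.229 and Cxcl12 at 2555.79.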

How the results depend on the processing

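No paired analysis was possible because the 4 libraries form 1 group with no contrast. Coding or spliced length was not run, since no such length was given. Leaving out each replicate in turn, with detection set anew, gave median CVs of 32.7% to 47.3% for matrix (44.5% with all 4), 39.6% to 45.7% for disc, 26.6% to 33.9% for hypoxia, 21.1% to 34.4% for stress and 35.2% to 54.0% for secreted genes, the lowest each time without replicate 1. The median percentile ranged from 65.9 to 72.5 for disc and from 84.8 to 87.6 for hypoxia genes. Ranking detected rows alone gave median percentiles of 91.2 for matrix, 79.0 for disc, 86.5 for hypoxia, 82.1 for stress and 62.7 for secreted genes. Dividing by genomic span, which includes introns and was chosen after seeing the data, gave 74.4, 53.6, 90.1 and 53.2 for matrix, disc, hypoxia and secreted genes, and 85.0 for stress genes, so the place of matrix genes against hypoxia and stress genes depends on length. Counting members above 0 in any library gave median CVs of 49.3% for disc and 62.5% for secreted genes. A total without mitochondrially encoded genes and the 10 highest other rows gave a stress share of 4.15%. TMM scaling moved the mean of no named gene by over 1 SD. It shifted the libraries by medians of only -0.00992 to 0.0105 on a log2 scale. A mean over the 4 libraries could thus hardly move, and the check says little. Leaving out 1 library moved the mean of 59 of the 223 named genes by over 1.5 times, for 34 of them replicate 1. The depth limits the genes under detection, whose values rest on few reads.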
